A study of Mus musculus with 10 samples.

Results

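The genes described here are 48 interferon-stimulated genes other than the guanylate-binding proteins, measured by RNA sequencing in cardiomyocytes isolated from mouse hearts 4 days after myocardial infarction (MI). They were selected by name: a row of the count table was included where its Ensembl gene identifier carried 1 of the 48 symbols in the GENCODE M21 annotation, and all 48 were found among the 51789 rows of the table. The study compared cardiomyocyte-specific GRK5 transgenic mice (TgGRK5-MI, n = 5) with non-transgenic littermate control mice (NLC-MI, n = 5), with 1 library per mouse. Both groups were infarcted by ligation of the left coronary artery and had their cells taken on the same day. No sham-operated library was analysed here, so the response of these genes to the infarct itself was not measured and each comparison is between infarcted hearts of both genotypes. The labels state neither strain, age nor sex. The study describes its infarcted mice as young adults of both sexes and does not state the sex of the mice sequenced. Sex-linked transcripts, given below, had the male pattern in each library. The promoter that drives the transgene is not given in the sources used here. Replicate numbers name different mice, and the labels give no pairing of them.

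Interferons are secreted proteins that cells release after sensing foreign or misplaced nucleic acid. Type I and type III interferons act through receptor-bound Janus kinases on a complex that holds STAT2 and IRF9 and binds the interferon-stimulated response element (ISRE) in promoters, while interferon gamma acts at the gamma-activated site (GAS). The genes that follow restrict viruses, sense RNA and DNA, conjugate ISG15 to other proteins, or feed back on the pathway, and in an infarcted heart macrophages that take up dying cells are a known source of such transcripts.

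None of the 48 genes passed an adjusted p under 0.10 in either direction (edgeR's quasi-likelihood test, adjusted over all genes tested). Over the 15232 genes tested, 12 genes passed (0.0788%). At an unadjusted p under 0.05 only Iigp1, an immunity-related GTPase, was lower in TgGRK5-MI and 0 genes were higher. That is 1 of 48, or 2.08%, beside 2.08% of all genes tested that were lower and 1.77% that were higher. The groups overlapped for each of the 48 genes, beside 1.00% of all genes whose groups did not overlap. The median log2 fold change of the 48 genes was 0.03, beside 0.0013 over all genes tested. The genes split into 27 with a positive and 21 with a negative fold change. Within both groups the genes varied between single hearts, by a median of 2.97-fold from the lowest to the highest of the 10 libraries, and these differences are described with each gene and then together.

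To show the element that many of these genes share, the 200 bases before the annotated start of Isg15, Ifit1, Ifit3 and Ifit3b are given 5′ to 3′ on the gene's strand (RefSeq, GRCm38.p6), with each match to the ISRE core GAAANNGAAA on either strand in capitals. They were chosen because they carry matches and because Ifit3 and Ifit3b are near identical and lie close together. Ifit2, of the same family, had 0 matches to the ISRE core in its 2 windows. The Isg15 stretch lies at chr4:156200819-156201018 on the reverse strand, Ifit1 at chr19:34640689-34640888, Ifit3 at chr19:34583329-34583528 and Ifit3b at chr19:34607757-34607956, all 3 on the forward strand.
Isg15: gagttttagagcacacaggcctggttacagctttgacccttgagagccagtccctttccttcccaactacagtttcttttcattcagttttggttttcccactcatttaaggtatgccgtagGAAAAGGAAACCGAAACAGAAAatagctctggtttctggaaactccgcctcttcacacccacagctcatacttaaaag
Ifit1: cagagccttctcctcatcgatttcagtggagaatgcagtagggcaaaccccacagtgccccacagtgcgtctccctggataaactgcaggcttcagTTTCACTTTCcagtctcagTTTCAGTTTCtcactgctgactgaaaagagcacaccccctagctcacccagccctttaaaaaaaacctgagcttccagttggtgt
Ifit3: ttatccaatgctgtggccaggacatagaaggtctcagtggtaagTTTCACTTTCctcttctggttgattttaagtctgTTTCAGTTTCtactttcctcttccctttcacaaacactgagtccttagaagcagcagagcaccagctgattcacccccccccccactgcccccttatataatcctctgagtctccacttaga
Ifit3b: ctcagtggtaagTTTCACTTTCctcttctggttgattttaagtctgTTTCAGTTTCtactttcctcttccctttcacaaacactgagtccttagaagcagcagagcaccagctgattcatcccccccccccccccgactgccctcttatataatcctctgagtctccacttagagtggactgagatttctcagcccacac

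The 3 matches of Isg15 overlap and begin 78, 72 and 66 bases before the start, while Ifit1 has 2 separate matches at 104 and 85 bases, Ifit3 at 156 and 122 bases and Ifit3b at 188 and 154 bases. A window of 300 bases, 250 before and 50 after the start, could be matched for 37 of the 48 genes. An ISRE core was found on either strand in 18 of the 37 (48.6%), compared to 1079 of 27025 genes with a window (3.99%). The GAS motif TTCNNNGAA, which reads the same on both strands, was found in 12 of the 37 (32.4%), compared to 9.55% of all genes. The median log2 fold change was -0.0047 for the 18 genes with a match and 0.050 for the 19 genes without one. A match is a run of letters and not evidence of binding in these cells.

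Grk5 itself, which checks the labels, was at 59.95, 59.3, 63.1, 73.1 and 46.5 CPM in NLC-MI, and 1509, 922, 1700.4, 552 and 1428 in TgGRK5-MI, which is 4.34 higher on the log2 scale (standard error 0.32, adjusted p = 0.000246 with edgeR). Total counts ran from 7968779 in NLC-MI replicate 3 to 23381527 in NLC-MI replicate 2, and values are given as CPM, the counts of a gene scaled to a common library size with trimmed mean of M-values (TMM) factors. Xist was at or under 0.916 CPM and the Y-linked Ddx3y between 63.4 and 92.7 CPM in each of the 10 libraries. The Y-linked genes measured summed to between 158 and 222 CPM, so each library read as male. Each of the 48 genes had between 10 and 4957 counts in each library and passed the filter on low counts. Cardiomyocyte markers such as Myh6 and Tnnt2 summed to between 37271 and 107861 CPM in NLC-MI, and between 37993 and 78342 CPM in TgGRK5-MI, so the labelled cell type was present in each library, with transcripts of other cells beside it. Of these 8 markers, Ryr2, a calcium release channel, was lower in TgGRK5-MI at an unadjusted p under 0.05, at 1489 ± 538 CPM (SD, n = 5) in NLC-MI against 783 ± 184 in TgGRK5-MI, with a log2 fold change of -0.93. Its edgeR unadjusted p was 0.00903 and its adjusted p 0.968, the other 7 did not pass, and the part of this difference in the results was not tested. In bulk RNA of this kind fewer cells of a type and less RNA per cell cannot be told apart.

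Compared per kb of exon, the level of the 48 genes spanned more than 2 orders of magnitude, and their order was led by membrane and secreted proteins. Ifitm3, which blocks viral fusion at endosomes, was highest at 213 CPM per kb in NLC-MI and 251 CPM per kb in TgGRK5-MI. Bst2 (tetherin), which holds budding viruses at the cell surface, followed at 50.7 CPM per kb in NLC-MI and 49.1 CPM per kb in TgGRK5-MI, within 1 SD of Lgals3bp, a secreted glycoprotein, at 43.99 CPM per kb in NLC-MI and 54.2 CPM per kb in TgGRK5-MI. Isg15, a ubiquitin-like protein, was at 20.99 CPM per kb in NLC-MI and 22.2 CPM per kb in TgGRK5-MI, followed by Ifi27, Ifit3, Ifi35 and Igtp. The values of Isg15, Ifi27 and Ifit3 did not differ beyond their spread over libraries. Mx1, Mx2 and Oas3 were lowest, at or under 1.19 CPM per kb in either group. The plot of levels by exon length shows both groups together for each gene.

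**Figure D1:**
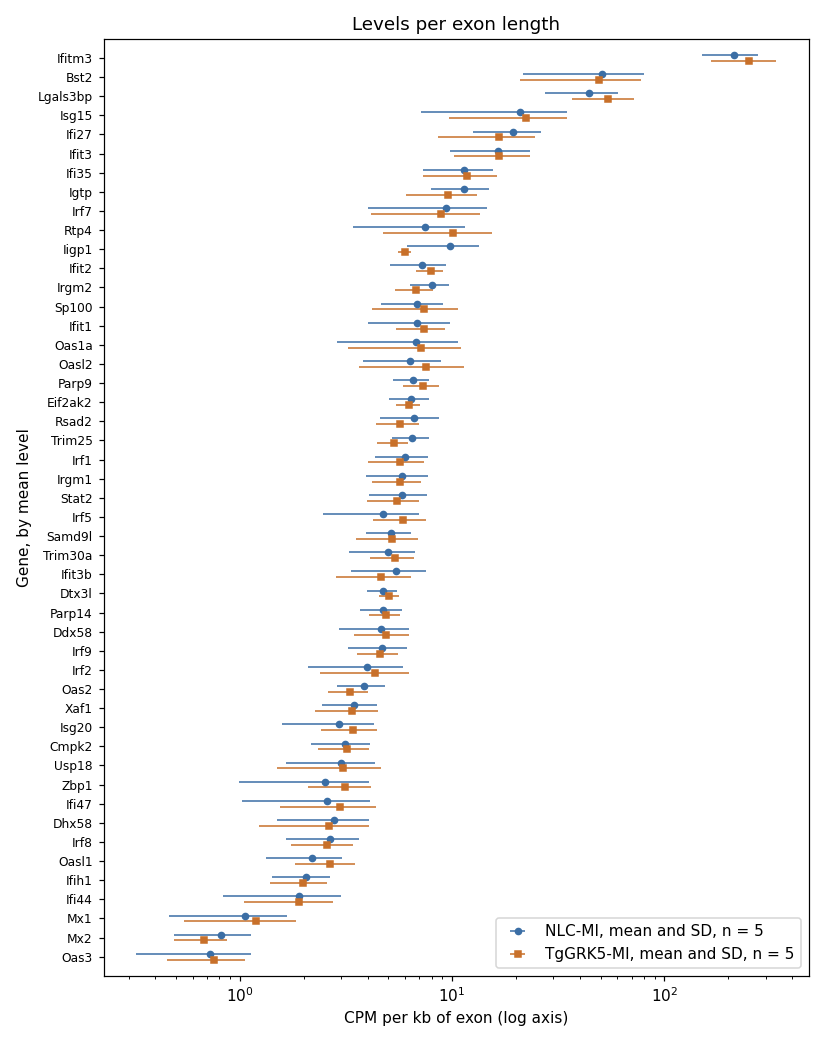
Mean CPM per kb of exon of each of the 48 genes on a log axis, with SD bars over 5 libraries, in NLC-MI (circles) and TgGRK5-MI (squares). Ifitm3 lies at 213 and 251 CPM per kb, and the bars of the groups overlap for each gene.

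The genes of the 4 IFIT proteins, which bind foreign RNA through tetratricopeptide repeats, lie close together on chromosome 19 and had log2 fold changes from -0.24 to 0.13. None of the 4 passed the test. Ifit2 measured 41.8, 31.05, 24.9, 22.1 and 21.99 CPM in NLC-MI, and 29.5, 33.1, 24.9, 31.2 and 36.8 in TgGRK5-MI in replicates 1 to 5, the order used for each gene that follows. Its highest library was NLC-MI replicate 1, and the groups overlapped, with a log2 fold change of 0.13 (95% interval -0.30 to 0.56, edgeR unadjusted p = 0.517). Ifit3 (chr19:34583531-34588731) was at 45.7, 34.04, 17.7, 18.4 and 28.01 CPM in NLC-MI, and 24.2, 43.6, 13.5, 29.1 and 35.4 in TgGRK5-MI. NLC-MI replicate 1 and TgGRK5-MI replicate 2 were the high libraries and TgGRK5-MI replicate 3 the lowest, and the log2 fold change of Ifit3 was 0.019 (95% interval -0.69 to 0.73, edgeR unadjusted p = 0.956). Ifit3b (chr19:34607970-34613401) was at 17.3, 9.43, 11.1, 5.54 and 11.1 CPM in NLC-MI, and 8.59, 12, 3.82, 8.83 and 12.8 in TgGRK5-MI, high in NLC-MI replicate 1 and low in TgGRK5-MI replicate 3 as Ifit3 was, with a log2 fold change of -0.24 (95% interval -0.97 to 0.50, edgeR unadjusted p = 0.50). The transcripts of Ifit3 and Ifit3b share a stretch of 1700 bases at 97.8% identity, so the division of reads between them is uncertain. Ifit3b took between 21.6% and 38.6% of the counts of the pair in a library, the largest share in the shallowest library, NLC-MI replicate 3. Ifit1 ran from 8.73 to 27.97 CPM in NLC-MI and from 14.6 to 27.5 in TgGRK5-MI.

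Of the ISG15 system, Isg15 (chr4:156199424-156200818) encodes the modifier, Trim25 an E3 ligase that acts in RNA sensing and ISG15 conjugation, and Usp18 the protease that removes ISG15 and dampens receptor signalling. None of the 3 passed the test. Isg15 was at 31.7, 21.4, 7.197, 10.3 and 8.77 CPM in NLC-MI, and 15.2, 32.2, 6.78, 12.3 and 17.6 in TgGRK5-MI, with means of 15.9 ± 10.5 CPM (SD, n = 5) in NLC-MI against 16.8 ± 9.504 CPM (SD, n = 5) in TgGRK5-MI. TgGRK5-MI replicate 2 and NLC-MI replicate 1 were nearly level at the top, TgGRK5-MI replicate 3 and NLC-MI replicate 3 were at the bottom, and the log2 fold change of Isg15 was 0.079 (95% interval -0.93 to 1.09, edgeR unadjusted p = 0.866). From the lowest to the highest of the 10 single libraries Isg15 spanned 4.75-fold. A stretch of 482 bases of Isg15 is also found at 95.2% identity in AC151275.1. Usp18 was at 14.9, 8.096, 6.804, 6.19 and 5.82 CPM in NLC-MI, and 7.78, 14.8, 3.48, 6.03 and 10.6 in TgGRK5-MI. As for Isg15, NLC-MI replicate 1 and TgGRK5-MI replicate 2 were high and TgGRK5-MI replicate 3 low, with a log2 fold change of 0.034 (95% interval -0.78 to 0.85, edgeR unadjusted p = 0.929). Trim25 was at 47.8, 41.5, 34.02, 34.4 and 28.9 CPM in NLC-MI, and 28.7, 36.7, 23.4, 34.04 and 30.1 in TgGRK5-MI. Its highest values, in NLC-MI replicates 1 and 2, lay above each TgGRK5-MI library and the other NLC-MI libraries did not, and the log2 fold change of Trim25 was -0.29 (95% interval -0.66 to 0.087, edgeR unadjusted p = 0.1198). That p was the second lowest among the 48 genes.

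The oligoadenylate synthetases make a short RNA-like messenger that activates RNase L, and the related Oasl proteins modulate RNA sensing. Log2 fold changes of the 5 genes ran from -0.22 to 0.27 and none passed the test. Oas2 was at 22.4, 20.3, 14.4, 11.7 and 16.5 CPM in NLC-MI, and 13.1, 15.5, 10.2, 18.5 and 16.2 in TgGRK5-MI. The highest NLC-MI libraries exceeded each TgGRK5-MI library but the lower ones did not, with a log2 fold change of -0.22 (95% interval -0.69 to 0.25, edgeR unadjusted p = 0.333). Oasl1 was at 9.34, 6.03, 4.71, 4.69 and 3.67 CPM in NLC-MI, and 6.08, 10.2, 4.35, 7.43 and 6.44 in TgGRK5-MI, where NLC-MI replicate 1 and TgGRK5-MI replicate 2 were again the high ones and the groups overlapped. The log2 fold change of Oasl1 was 0.27 (95% interval -0.36 to 0.90, edgeR unadjusted p = 0.361). Among the rest, Oas1a ran from 5.36 to 22.7 CPM in NLC-MI and from 6.87 to 24.8 in TgGRK5-MI, Oas3 from 2.29 to 9.12 CPM in NLC-MI and from 3.04 to 8.901 in TgGRK5-MI, and Oasl2 from 22.3 to 55.4 CPM in NLC-MI and from 26.5 to 87.2 in TgGRK5-MI. Oasl2 differed from the other OAS genes in its highest library, which was TgGRK5-MI replicate 4. Oas1a shares 1861 bases at 97.6% identity with Oas1g, so counts of the pair may be divided differently by other methods.

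The 8 antiviral effectors had log2 fold changes from -0.27 to 0.24, and none passed the test. Ifitm3 was at 199, 133, 174, 127 and 89.4 CPM in NLC-MI, and 109.8, 216, 123, 244 and 158 in TgGRK5-MI, with means of 144 ± 42.6 CPM (SD, n = 5) in NLC-MI against 170.2 ± 58.2 CPM (SD, n = 5) in TgGRK5-MI. TgGRK5-MI replicates 4 and 2 were the highest and NLC-MI replicate 5 the lowest, and the log2 fold change of Ifitm3 was 0.24 (95% interval -0.34 to 0.81, edgeR unadjusted p = 0.387). Bst2 was at 82.5, 62.3, 17.1, 35.8 and 31.2 CPM in NLC-MI, and 33.5, 84.04, 24.3, 24.7 and 55.1 in TgGRK5-MI. The same libraries as for Isg15, NLC-MI replicate 1 and TgGRK5-MI replicate 2, stood at the top, and NLC-MI replicate 3 at the bottom, with a log2 fold change of -0.048 (95% interval -1.01 to 0.91, edgeR unadjusted p = 0.916). Rsad2 (viperin), which makes a nucleotide that ends viral RNA chains, was at 39.2, 24.9, 33.6, 15.7 and 30.7 CPM in NLC-MI, and 18.2, 28.3, 18.7, 28.9 and 29.2 in TgGRK5-MI. NLC-MI replicate 1 was highest and NLC-MI replicate 4 lowest, so the control libraries spanned the transgenic ones, and the log2 fold change of Rsad2 was -0.22 (95% interval -0.76 to 0.31, edgeR unadjusted p = 0.377). Of the others, the dynamin-like GTPases were low: Mx1 ran from 2.09 to 7.53 CPM in NLC-MI and from 1.304 to 7.72 in TgGRK5-MI, and Mx2 from 1.31 to 4.23 CPM in NLC-MI and from 1.65 to 3.45 in TgGRK5-MI. Mx1 had the widest span of the 48 genes over the 10 libraries, 5.92-fold, and it shares 843 bases at 95.3% identity with Mx2. In the annotation used here Mx2 is a polymorphic pseudogene. Cmpk2, a mitochondrial nucleotide kinase, ran from 9.38 to 19.2 CPM in NLC-MI and from 8.69 to 17.4 in TgGRK5-MI. The exonuclease gene Isg20 ran from 2.72 to 7.84 CPM in NLC-MI and from 4.78 to 8.402 in TgGRK5-MI, and Samd9l from 19.4 to 35.9 CPM in NLC-MI and from 14.2 to 36.9 in TgGRK5-MI.

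Among the nucleic acid sensors, Ddx58 (RIG-I), Ifih1 (MDA5) and Dhx58 (LGP2) recognise viral RNA, Zbp1 recognises left-handed nucleic acid and can start necroptosis, and Eif2ak2 (PKR) halts translation on double-stranded RNA. None of the 5 passed the test, with log2 fold changes from -0.078 to 0.30. Zbp1 was at 15.9, 13.5, 5.496, 4.46 and 5.11 CPM in NLC-MI, and 11, 16.5, 6.78, 11.7 and 9.07 in TgGRK5-MI. NLC-MI replicates 3, 4 and 5 lay below each TgGRK5-MI library while NLC-MI replicates 1 and 2 lay among the highest, and the log2 fold change of Zbp1 was 0.30 (95% interval -0.53 to 1.14, edgeR unadjusted p = 0.444). Ddx58 was at 49.2, 39.3, 29.7, 23.98 and 20.4 CPM in NLC-MI, and 30.95, 41.6, 20.6, 46.2 and 32.1 in TgGRK5-MI, high in NLC-MI replicate 1 and TgGRK5-MI replicate 4, with a log2 fold change of 0.076 (95% interval -0.51 to 0.66, edgeR unadjusted p = 0.783). Eif2ak2 varied little over the libraries, 1.68-fold from lowest to highest, and ran from 23.95 to 40.3 CPM in NLC-MI and from 27.03 to 38.1 in TgGRK5-MI. Ifih1 ran from 11.6 to 23.3 CPM in NLC-MI and from 8.87 to 22.3 in TgGRK5-MI. Dhx58 ran from 5.498 to 14.4 CPM in NLC-MI and from 3.13 to 15.4 in TgGRK5-MI, a 4.92-fold span.

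The transcription factors of the list are Stat2 and Irf9, which take part in the complex at the ISRE, Irf1, Irf5, Irf7 and Irf8, which induce interferons or their targets, and Irf2, which competes with Irf1 and can repress. None of the 7 passed the test, with log2 fold changes from -0.091 to 0.31. Irf1 was at 29.7, 32.02, 17.01, 19.4 and 21.3 CPM in NLC-MI, and 20.6, 33.9, 18.2, 17.8 and 22.4 in TgGRK5-MI. TgGRK5-MI replicate 2 stood above its group and near NLC-MI replicates 1 and 2, and the log2 fold change of Irf1 was -0.081 (95% interval -0.58 to 0.42, edgeR unadjusted p = 0.732). Irf2 was at 27, 21.8, 54.3, 20.8 and 23.8 CPM in NLC-MI, and 21.96, 24.3, 35.5, 55.6 and 22.7 in TgGRK5-MI. Its high libraries were NLC-MI replicate 3 and TgGRK5-MI replicate 4, 1 in each group, which were not the high ones of Isg15 and are also the shallowest libraries, and the log2 fold change of Irf2 was 0.12 (95% interval -0.60 to 0.83, edgeR unadjusted p = 0.728). Irf5 was at 19.4, 21.5, 9.68, 12.3 and 5.82 CPM in NLC-MI, and 14.9, 24.6, 12.3, 18.8 and 14.98 in TgGRK5-MI, with the highest value in TgGRK5-MI replicate 2 and the lowest in NLC-MI replicate 5. The log2 fold change of Irf5 was 0.31 (95% interval -0.40 to 1.02, edgeR unadjusted p = 0.356), and 411 exon bases of Irf5 lie opposite exons of Tnpo3. Stat2 was at 47.8, 43.9, 28.5, 25.7 and 26.8 CPM in NLC-MI, and 32.2, 43.2, 18.8, 34.1 and 33.9 in TgGRK5-MI. NLC-MI replicates 1 and 2 and TgGRK5-MI replicate 2 were high, with a log2 fold change of -0.091 (95% interval -0.62 to 0.44, edgeR unadjusted p = 0.715). Irf7, the factor that amplifies type I interferon, ran from 19.9 to 63.8 CPM in NLC-MI and from 15.8 to 63.2 in TgGRK5-MI, highest in NLC-MI replicate 1 and TgGRK5-MI replicate 2. Irf8, a myeloid factor, ran from 9.82 to 26.1 CPM in NLC-MI and from 13.04 to 27.97 in TgGRK5-MI, and Irf9 from 18.97 to 36.5 CPM in NLC-MI and from 17.6 to 32.6 in TgGRK5-MI.

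Parp9, Parp14 and Dtx3l lie close together on chromosome 16, and Parp9 and Dtx3l work as a pair that modifies histones and host proteins. They were among the most even genes of the list, with log2 fold changes from 0.039 to 0.15. None of the 3 passed the test. Dtx3l was at 28.8, 29.4, 31.8, 21.3 and 24.2 CPM in NLC-MI, and 31.4, 30.2, 29.4, 30.5 and 23.8 in TgGRK5-MI, with the narrowest span of the 48 genes over the 10 libraries, 1.49-fold. TgGRK5-MI replicate 5 was low against the rest of its group and inside the NLC-MI range, with a log2 fold change of 0.10 (95% interval -0.22 to 0.42, edgeR unadjusted p = 0.5103). Parp9 was at 39.95, 36.1, 26.4, 25.5 and 30.8 CPM in NLC-MI, and 35.96, 41.1, 25.03, 32.9 and 41.8 in TgGRK5-MI. The lowest values of both groups were alike, and the log2 fold change of Parp9 was 0.15 (95% interval -0.24 to 0.55, edgeR unadjusted p = 0.409). A run of 458 exon bases lies opposite between Parp9 and Dtx3l, and the strand setting of the counting is not given in the sources used here. Parp14 ran from 32.9 to 57.97 CPM in NLC-MI and from 32.6 to 51.7 in TgGRK5-MI.

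The immunity-related GTPases mark and break the vacuoles of intracellular parasites and are, with the guanylate-binding proteins, strong targets of interferon gamma. Of the 5, Iigp1 was lower in TgGRK5-MI at an unadjusted p under 0.05 and the other 4 did not pass. Iigp1, on chromosome 18, was at 60.3, 50.3, 65.3, 25.6 and 83.6 CPM in NLC-MI, and 34.7, 36.4, 37.5, 31.2 and 34.7 in TgGRK5-MI, with means of 57.02 ± 21.3 CPM (SD, n = 5) in NLC-MI against 34.9 ± 2.36 CPM (SD, n = 5) in TgGRK5-MI. NLC-MI replicate 5 was highest, the TgGRK5-MI libraries lay close together, and NLC-MI replicate 4 lay below each of them, so the groups overlapped. The log2 fold change was -0.71 (95% interval -1.25 to -0.17, edgeR unadjusted p = 0.0146, adjusted p = 1.00), and an exact permutation test (two-sided, each way of placing 5 of the 10 libraries) gave p = 0.0714, where 0.00794 is the smallest it can give. In the 19 alternative fits the fold change stayed between -0.89 and -0.48, with adjusted p from 0.184 to 1.00. The lowest of these came without NLC-MI replicate 4 and the smallest fold change with limma-voom. No RefSeq promoter window was matched for Iigp1.

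Irgm2, which shields host membranes from the other GTPases, was at 35.9, 29.5, 34.9, 20.9 and 26.7 CPM in NLC-MI, and 26.5, 30.8, 20.9, 27.5 and 18.6 in TgGRK5-MI. NLC-MI replicates 1 and 3 were highest and TgGRK5-MI replicate 5 lowest, and the log2 fold change of Irgm2 was -0.25 (95% interval -0.67 to 0.16, edgeR unadjusted p = 0.212). Igtp (Irgm3) was at 30.4, 27.6, 19.1, 13.04 and 24.9 CPM in NLC-MI, and 17.4, 30.2, 12.4, 14.6 and 22.3 in TgGRK5-MI. Here NLC-MI replicate 1 and TgGRK5-MI replicate 2 led again, with a log2 fold change of -0.25 (95% interval -0.85 to 0.36, edgeR unadjusted p = 0.393), and 162 exon bases of Igtp are shared with Irgm2 on the same strand. Irgm1 ran from 23.3 to 48.7 CPM in NLC-MI and from 23.7 to 46.4 in TgGRK5-MI. Ifi47 ran from 3.402 to 11.98 CPM in NLC-MI and from 2.96 to 12.8 in TgGRK5-MI.

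The other 8 genes had log2 fold changes from -0.22 to 0.43, and none passed the test. Lgals3bp was at 182, 157, 131, 90.8 and 65.6 CPM in NLC-MI, and 127, 199.7, 104, 216 and 125 in TgGRK5-MI. TgGRK5-MI replicates 4 and 2 were high and NLC-MI replicate 5 low, the same libraries as for Ifitm3, and the log2 fold change of Lgals3bp was 0.30 (95% interval -0.33 to 0.94, edgeR unadjusted p = 0.3196). Ifi27, a mitochondrial protein, was at 42.4, 33.2, 15.4, 27.2 and 24.2 CPM in NLC-MI, and 19.6, 40.5, 13.1, 15.6 and 33.02 in TgGRK5-MI. NLC-MI replicate 1 and TgGRK5-MI replicate 2 were the highest and TgGRK5-MI replicate 3 the lowest, with a log2 fold change of -0.22 (95% interval -0.96 to 0.51, edgeR unadjusted p = 0.518). Ifi35 was at 26.2, 22.99, 7.85, 18.7 and 22.5 CPM in NLC-MI, and 18.9, 29.1, 14.9, 11.4 and 27.6 in TgGRK5-MI, where NLC-MI replicate 3 was the lowest library. The log2 fold change of Ifi35 was 0.05 (95% interval -0.66 to 0.76, edgeR unadjusted p = 0.88), and 290 of its exon bases lie opposite the antisense gene Gm11626. Rtp4, a chaperone of receptors at the Golgi, was at 23.5, 13.3, 26.6, 7.32 and 8.901 CPM in NLC-MI, and 12.9, 19.2, 16.7, 41.5 and 17.2 in TgGRK5-MI. TgGRK5-MI replicate 4 lay far above the rest of its group, and the log2 fold change of Rtp4 was 0.43 (95% interval -0.45 to 1.32, edgeR unadjusted p = 0.302). No other gene of the 48 had a higher fold change. Without TgGRK5-MI replicate 4 the fold changes of Rtp4 and Sp100 were 0.061 and -0.18, and 296 exon bases of Rtp4 are shared with Gm45338. Sp100, which organises nuclear bodies, was at 60.7, 52.7, 73.02, 30.7 and 40.7 CPM in NLC-MI, and 38.4, 49.6, 47.4, 98.6 and 46.1 in TgGRK5-MI. TgGRK5-MI replicate 4 and NLC-MI replicate 3 were the high libraries, as for Irf2, with a log2 fold change of 0.12 (95% interval -0.51 to 0.74, edgeR unadjusted p = 0.688), and stretches of Sp100 are near identical in 4 predicted genes. The ranges of the remaining 3 were as follows. Ifi44 ran from 5.11 to 19.9 CPM in NLC-MI and from 5.21 to 19.3 in TgGRK5-MI, Xaf1 from 9.95 to 22.6 CPM in NLC-MI and from 10.6 to 23.5 in TgGRK5-MI, and Trim30a from 13.8 to 31.1 CPM in NLC-MI and from 14.1 to 26.8 in TgGRK5-MI.

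**Figure D2:**
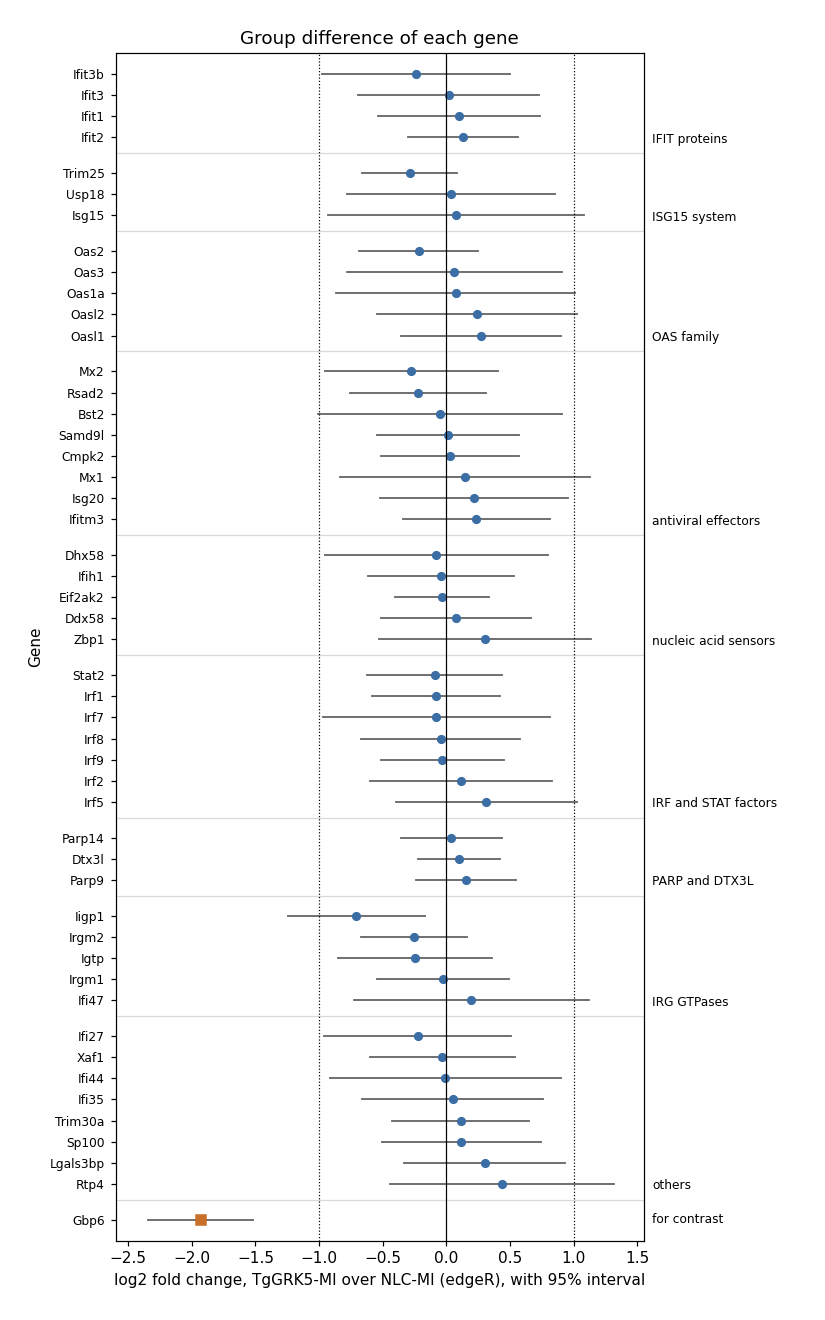
Log2 fold change of each of the 48 genes (circles, by role) with its 95% interval from edgeR, TgGRK5-MI over NLC-MI, and Gbp6 (square) for contrast, with dotted lines at a 2-fold difference. The intervals include 0 for each gene except Iigp1 and Gbp6, and no interval of the 48 genes reaches that of Gbp6.

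The size of difference that these libraries leave possible follows from the intervals. For 38 of the 48 genes the 95% interval lay inside a 2-fold difference in either direction. It reached past 2-fold for the other 10, which were Isg15, Oas1a, Oasl2, Mx1, Bst2, Zbp1, Irf5, Ifi47, Rtp4 and Iigp1. The SD of log2 CPM within groups had a median of 0.508 over the 48 genes and ran from 0.2003 to 0.858, compared to a median of 0.390 over all genes tested, and 38 of the 48 genes lay above that median. A p that misses the threshold does not show that the groups were alike.

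The guanylate-binding proteins, interferon-induced GTPases that act beside the immunity-related ones, gave a different picture for 1 gene. Gbp6 was at 34.5, 38.4, 39.3, 27.03 and 47.5 CPM in NLC-MI, and 7.11, 9.51, 10.2, 11.8 and 10.4 in TgGRK5-MI. Each TgGRK5-MI library lay below each NLC-MI library, and the log2 fold change was -1.93 (95% interval -2.34 to -1.52, edgeR adjusted p = 0.00239). Gbp6 is set here as a contrast because it passed the test in these libraries, so the comparison with it is a description. None of the 48 intervals reached the interval of Gbp6. Of its family, 8 other genes had enough counts to be tested, with log2 fold changes from -0.57 to 0.51, and 0 of the 8 passed an unadjusted p under 0.05. In NLC-MI replicate 4 Gbp6 was lowest of its group, as Iigp1 was, and in NLC-MI replicate 5 both were highest. The plot of single libraries sets Iigp1 and Gbp6 beside Isg15, Irf1, Irf2 and Sp100.

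**Figure D3:**
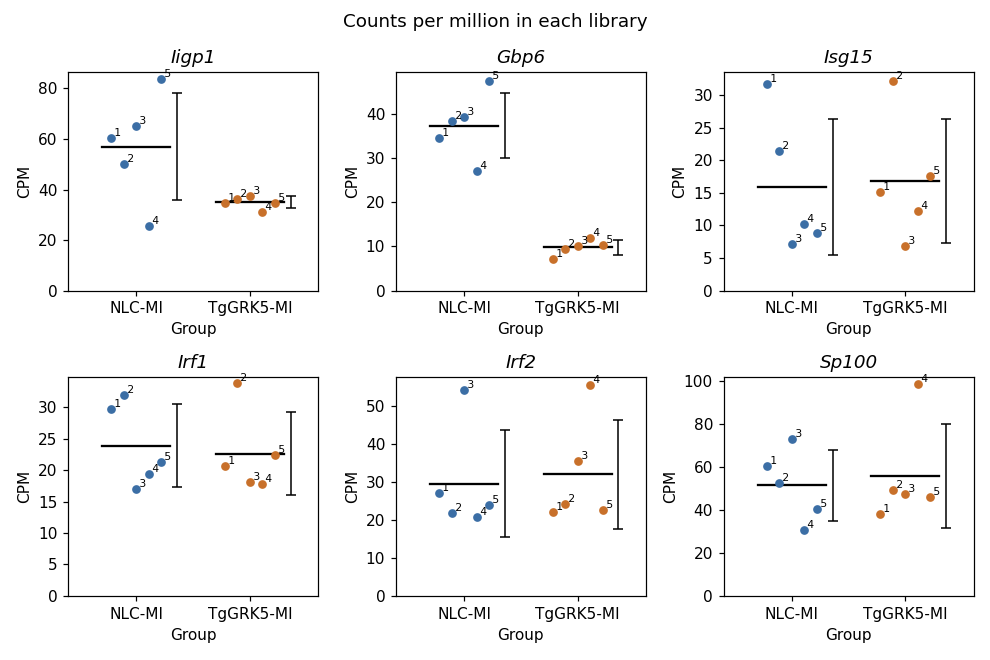
CPM of 6 genes in each library (points, numbered by replicate), with the group mean (line) and SD (bar, n = 5). The groups are separate for Gbp6 alone, Iigp1 is lower in TgGRK5-MI except against NLC-MI replicate 4, and the groups overlap for the other 4 genes.

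The genes upstream were read from a list of 55 that are not among the 48. Of 21 interferon ligand genes, 15 had 0 counts in each library, the other 6 had at most 5 counts in a library, and none passed the filter on low counts. Ifng had 1 count over all libraries and Ifnb1 had 2. Ifnz, a type I ligand gene, had 12 counts, 2 of them in NLC-MI and 10 in TgGRK5-MI, with 5 in TgGRK5-MI replicate 2 and 4 in TgGRK5-MI replicate 5. The other ligand genes had at most 1 count in a library, below the floor of 3 counts, which corresponds to between 0.121 and 0.393 CPM. No ligand gene was tested. Of the 34 other pathway genes, all passed the filter. At an unadjusted p under 0.05, 1 of the 34 was lower and 0 were higher, and 0 passed an adjusted p under 0.10. Over all genes tested, 2.08% were lower and 1.77% higher at that unadjusted p, and 0.0788% passed the adjusted one. The receptors were present: Ifnar1 ran from 33.1 to 52.8 CPM in NLC-MI and from 29.9 to 56.2 in TgGRK5-MI, and Ifngr1 from 55.5 to 89.6 CPM in NLC-MI and from 54.6 to 85.2 in TgGRK5-MI.

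Socs3, a feedback inhibitor of Janus kinases, was the pathway gene that was lower. It was at 58.8, 39.5, 31.8, 38.8 and 24.6 CPM in NLC-MI, and 31.9, 28.8, 22.3, 17.2 and 28.2 in TgGRK5-MI. NLC-MI replicate 1 was highest and TgGRK5-MI replicate 4 lowest, the groups overlapped, and the log2 fold change of Socs3 was -0.59 (95% interval -1.11 to -0.073, edgeR unadjusted p = 0.0287). Its adjusted p was 1.00 with edgeR and the exact permutation p was 0.0635. Without NLC-MI replicate 1, TgGRK5-MI replicate 3 or TgGRK5-MI replicate 4, and with a covariate of sex-linked genes, Socs3 no longer had an unadjusted p under 0.05. Each library read as male, so that covariate held no sex difference to adjust for. Jak1, the kinase that both receptor types use, was at 175, 175, 186, 188 and 172 CPM in NLC-MI, and 165, 160.4, 137, 172 and 168 in TgGRK5-MI. The groups of Jak1 did not overlap, by a margin of 172.2 against 172.4 CPM (exact permutation test, p = 0.00794, the smallest that it can give). Of the 34 pathway genes tested, 1 had groups that did not overlap, beside 1.00% of all genes tested. The log2 fold change of Jak1 was -0.16 (95% interval -0.41 to 0.10, edgeR unadjusted p = 0.1998). Mavs, the adaptor of RIG-I and MDA5, was at 47.4, 73.96, 81.5, 89.8 and 82.2 CPM in NLC-MI, and 104, 80.8, 147, 91.6 and 78.2 in TgGRK5-MI, with a log2 fold change of 0.42 (95% interval -0.046 to 0.88, edgeR unadjusted p = 0.0734).

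Across the libraries the 48 genes tended to be high or low together, within both groups. For each library, the deviation of each gene from its mean of the 2 group means was taken on the log2 CPM scale. The median deviation was 0.581, 0.273, -0.104, -0.416 and -0.392 in NLC-MI replicates 1 to 5 and -0.0521, 0.425, -0.485, 0.122 and 0.0881 in TgGRK5-MI replicates 1 to 5. NLC-MI replicate 1 and TgGRK5-MI replicate 2 were the high libraries, and TgGRK5-MI replicate 3, NLC-MI replicate 4 and NLC-MI replicate 5 the low ones. In NLC-MI replicate 1, 47 of the 48 genes lay above their own mean, and in TgGRK5-MI replicate 2 it was 44, compared to 3 in TgGRK5-MI replicate 3 and 4 in NLC-MI replicate 4. The pooled SD of the library medians within groups was 0.385, against a median fold change between groups of 0.03 on the same scale. The map of the genes by library shows the same columns.

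**Figure D4:**
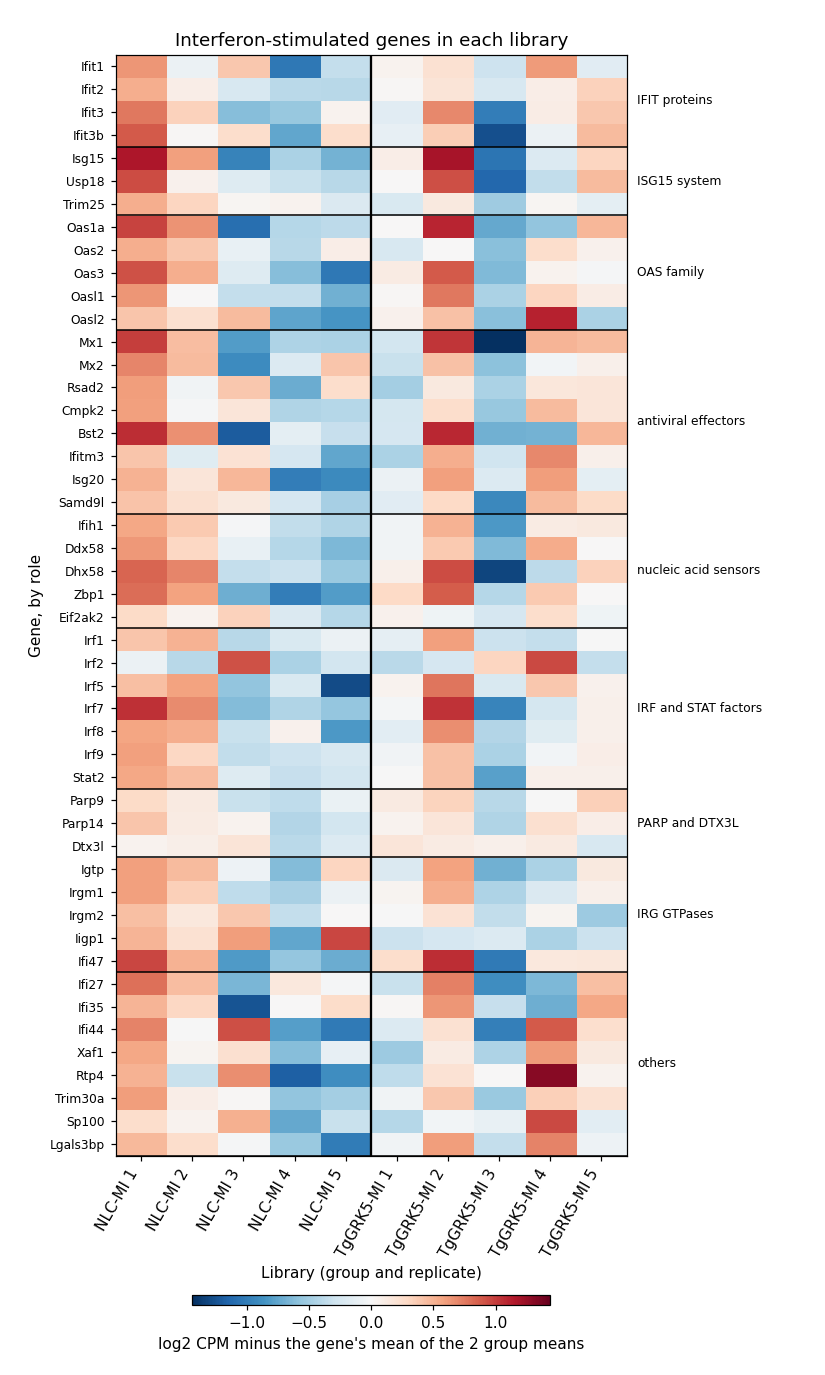
Log2 CPM of each of the 48 genes (rows, by role) in each library (columns) minus the gene's mean of the 2 group means, in red where above and blue where below. NLC-MI replicate 1 and TgGRK5-MI replicate 2 are red for most genes and TgGRK5-MI replicate 3 and NLC-MI replicate 4 blue, so each group holds both kinds of column.

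The highest library separated the genes into sets. It was NLC-MI replicate 1 for 22 genes, among them Ifit1, Ifit2, Ifit3, Ifit3b, Irf7, Usp18 and Rsad2, and TgGRK5-MI replicate 2 for 12 genes, among them Isg15, Bst2, Oas1a, Irf1, Irf5 and Irf8. It was TgGRK5-MI replicate 4 for 9 genes, namely Ifitm3, Irf2, Isg20, Lgals3bp, Oasl2, Rtp4, Samd9l, Sp100 and Xaf1, and NLC-MI replicate 3 for Dtx3l, Eif2ak2 and Ifi44. Iigp1 was the only gene highest in NLC-MI replicate 5, and Parp9 the only one highest in TgGRK5-MI replicate 5. The lowest library was TgGRK5-MI replicate 3 for 19 genes, NLC-MI replicate 4 for 12 genes and NLC-MI replicate 5 for 11 genes. From lowest to highest library the 48 genes spanned between 1.49-fold and 5.92-fold.

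Markers of other heart cells differed between the libraries too. The 10 macrophage and monocyte markers, Lyz2, C1qa and Csf1r among them, summed in replicates 1 to 5 to 2152, 1742, 723, 958 and 728 CPM in NLC-MI and 1273, 2419.7, 1169.7, 1331 and 1797 CPM in TgGRK5-MI. TgGRK5-MI replicate 2 and NLC-MI replicate 1, the libraries in which most of the 48 genes were high, had the highest sums. The low end did not match in the same way. TgGRK5-MI replicate 3, lowest for the 48 genes, had a higher sum than NLC-MI replicates 3, 4 and 5. NLC-MI replicate 3 had the lowest sum, with a median deviation of the 48 genes of -0.104. All 10 macrophage and monocyte markers were tested and 0 had an unadjusted p under 0.05. Their directions were alike, however. Cd14 had a log2 fold change of -0.0074, and each of the others was higher in TgGRK5-MI, up to 0.54 for Cd68. The sums of NLC-MI replicates 3, 4 and 5 lay below that of each TgGRK5-MI library. TgGRK5-MI replicate 2 and NLC-MI replicate 1 also had the lowest cardiomyocyte marker sums, at 37993 and 37271 CPM. The highest cardiomyocyte sums were 107861 CPM in NLC-MI replicate 5 and 78342 CPM in TgGRK5-MI replicate 3. NLC-MI replicate 4, also low for the 48 genes, was at 57192 CPM. The part of cardiomyocyte content was not tested. The 6 fibroblast markers summed to between 2683 and 16212 CPM in NLC-MI and between 2962 and 16115 CPM in TgGRK5-MI, highest in NLC-MI replicates 1 and 2 and TgGRK5-MI replicate 2. The 6 endothelial markers summed to between 705 and 1400.0 CPM in NLC-MI and between 667 and 1472 CPM in TgGRK5-MI. The endothelial sums were highest in TgGRK5-MI replicate 4 and NLC-MI replicate 3, the libraries that led for Irf2, Sp100, Rtp4 and Ifi44.

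Markers of other leukocytes were few. The 6 neutrophil markers summed to between 7.98 and 21.5 CPM in NLC-MI and between 10.7 and 23.8 CPM in TgGRK5-MI. Most of the sum came from Csf3r, at 5.36 to 12.3 CPM in NLC-MI and 7.60 to 13.9 CPM in TgGRK5-MI, and from S100a8 and S100a9. S100a8 reached 4.63 CPM and S100a9 4.97 CPM. These 3 were tested and 0 had an unadjusted p under 0.05. Ly6g was at no more than 1 count in a library, Mpo at no more than 0.480 CPM and Retnlg at no more than 0.447 CPM. The 6 lymphocyte markers summed to between 0.654 and 2.07 CPM in NLC-MI and between 1.07 and 3.19 CPM in TgGRK5-MI, and the 3 NK markers stayed at or under 0.829 CPM in sum. Of the plasmacytoid dendritic markers, Siglech reached at most 0.431 CPM and Ccr9 at most 0.323 CPM, while Tcf4, which endothelial and other cells also express, made up nearly the whole sum. The 4 mural markers summed to between 699 and 1365 CPM in NLC-MI and between 1024 and 1529 CPM in TgGRK5-MI. The plot of the libraries sets the marker sums under the median of the 48 genes.

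**Figure D5:**
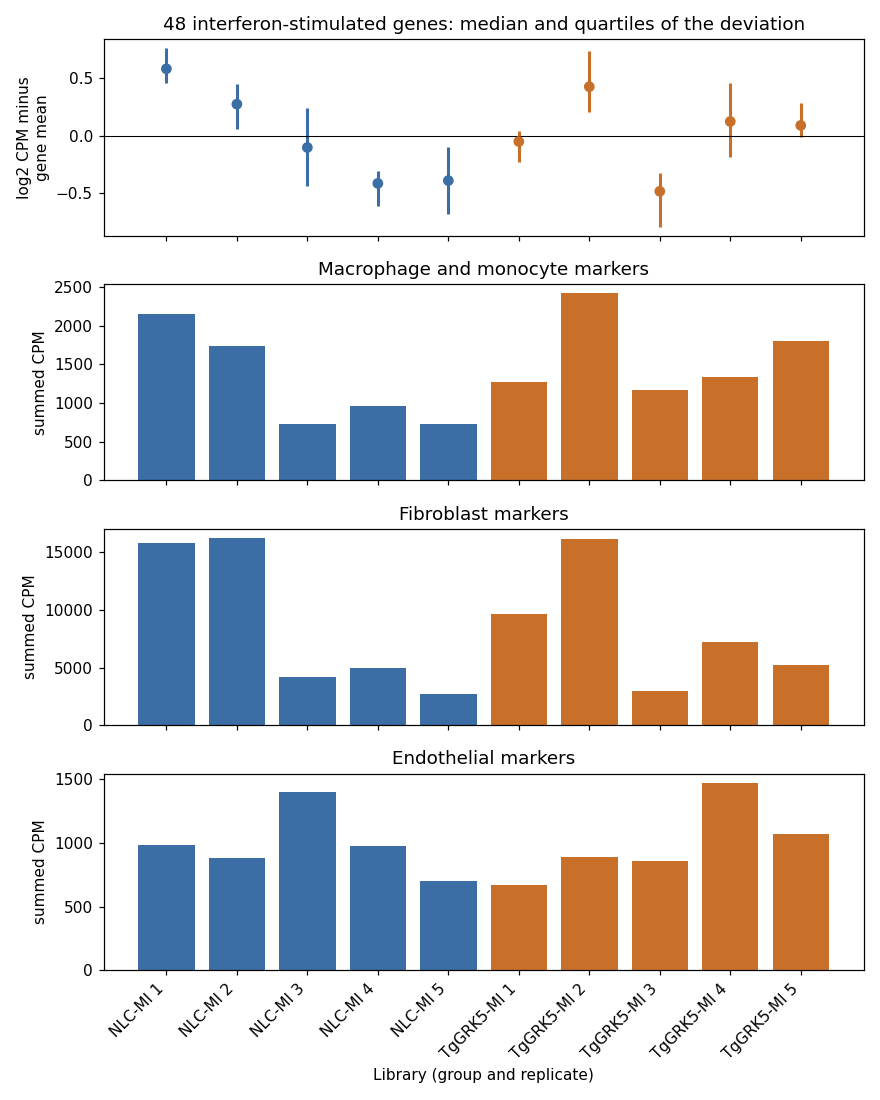
For each library, the median (point) and quartiles (line) of the deviation of the 48 genes in log2 CPM, above bars of the summed CPM of macrophage and monocyte, fibroblast and endothelial markers, with NLC-MI in blue and TgGRK5-MI in orange. NLC-MI replicate 1 and TgGRK5-MI replicate 2 are high in the upper 3 panels, and NLC-MI replicate 3 and TgGRK5-MI replicate 4 are highest for endothelial markers.

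A fit that held the summed macrophage and monocyte markers as a covariate, added after the values were seen, gave 7 of the 48 genes lower in TgGRK5-MI at an unadjusted p under 0.05 and 0 higher. That is beside 3.72% of all genes tested that were lower and 6.59% that were higher in the same fit. The marker sum itself differed between the groups, from 723 to 2152 CPM in NLC-MI and from 1170 to 2420 CPM in TgGRK5-MI. The 48 genes tended to be high or low together over libraries, so the 7 are not independent results. What moved the fold changes in that fit was not tested. The 7 genes were Trim25, Irf7, Ifi27, Bst2, Iigp1, Irf8 and Irf1, and the lowest adjusted p among them was 0.405 (edgeR). The log2 fold change of Irf7 was -0.53 (standard error 0.1799) with the covariate, compared to -0.079 (standard error 0.409) without it. For Bst2 it was -0.58 (standard error 0.208), compared to -0.048 (standard error 0.439). Iigp1 moved least of the 7, to -0.65 from -0.71. With the covariate, 36 of the 48 genes had a negative and 12 a positive log2 fold change, with a median of -0.25, compared to 21 and 27 with a median of 0.030 without it. The median over all genes tested was -0.0020 with the covariate. With limma-voom and no covariate, 2 of the 48 genes, Iigp1 and Trim25, were lower and 0 were higher at an unadjusted p under 0.05, beside 4.41% of all genes tested that were lower and 7.47% that were higher. None of the 48 genes passed an adjusted p under 0.10 in either fit, and the part of fibroblast and endothelial transcripts was not tested.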

How the data were processed

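The authors deposited whole-number counts per Ensembl gene, 1 column per library. The labels name the TruSeq RNA Library Prep Kit v2. The submitters' processing notes name Bowtie2, RSEM 1.2.31, DESeq2 and mm10, so the counts may be rounded estimates. Annotation and strand setting are not given in the sources used here. Genes were named with GENCODE M21 (GRCm38) and tested with edgeR 4.0.16 (quasi-likelihood, TMM, filterByExpr by group) on all 15232 genes that passed, of 28506 with a count, with Benjamini-Hochberg adjustment. The thresholds were an adjusted p of 0.10, the false discovery rate that the study used, and an unadjusted p of 0.05. Log2 CPM used a prior count of 2 for exact permutation tests. Length is the union of exons. Alternatives used DESeq2 1.42.0 and limma 3.58.1. Near-identical transcripts were searched with blastn 2.17.0 (at least 95% identity over 200 bases). Values in each library were given for genes with an unadjusted p under 0.05, the 8 highest per length, those with a library apart by Dixon's test, and the 2 lowest p of each role, and the others by range. The genes and lists were chosen with earlier results of these data known. Scripts were tested on simulated data. Some results are not reported here.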

Additional observations from a re-analysis of the deposited data

Results flagged for a closer look

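In 6 of 96 groups of 5 libraries, 1 library stood apart from the other 4 by Dixon's test at the 95% level, which chance gives in about 1 of 20 groups. Usp18 was at 14.9 CPM in NLC-MI replicate 1 against 5.82 to 8.10 CPM in the other control libraries, and without that library its log2 fold change was 0.34 instead of 0.034. Irf1 was at 33.9 CPM in TgGRK5-MI replicate 2 against 17.8 to 22.4 CPM, and its log2 fold change without it was -0.28 instead of -0.081. Irf2 was at 54.3 CPM in NLC-MI replicate 3 against 20.8 to 27.0 CPM, and its log2 fold change without it was 0.45 instead of 0.12. Dtx3l was at 23.8 CPM in TgGRK5-MI replicate 5 against 29.4 to 31.4 CPM. Its log2 fold change was then 0.16 instead of 0.10. In TgGRK5-MI replicate 4, Rtp4 was at 41.5 CPM against 12.9 to 19.2 CPM and Sp100 was at 98.6 CPM against 38.4 to 49.6 CPM. Without that library the log2 fold change of Rtp4 was 0.061 instead of 0.43, and that of Sp100 was -0.18 instead of 0.12. None of these 6 genes had an unadjusted p under 0.05 (edgeR) with or without the library.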

How the results depend on the processing

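Under 19 alternatives, 0 of the 48 genes passed an adjusted p under 0.10 and 0 were higher at an unadjusted p under 0.05. Iigp1 was lower at that threshold in each alternative. The number lower was 1 in the fit reported, 2 with limma-voom (Trim25 joined; 4.41% of all genes tested were lower and 7.47% higher in that fit), 7 with the macrophage and monocyte covariate, which was added after the data were seen, and 1 to 2 with each library left out in turn (2, with Trim25, without NLC-MI replicate 5). The median log2 fold change of the 48 genes was -0.25 with the macrophage covariate and -0.13 with limma-voom, between -0.028 and 0.046 in the other fits to all libraries, and ran from -0.13 to 0.17 with each library left out, and 32 of the 48 genes took the other sign in at least 1 alternative. Of the 34 pathway genes, 0 were higher and 1 was lower in the fit reported, beside 1.77% and 2.08% of all genes tested. The numbers higher and lower were 1 and 1 with library size alone, 3 and 2 with limma-voom, 1 and 0 with a covariate of Xist and Y-linked genes and 2 and 3 with the macrophage covariate. With each library left out they ran from 0 to 2 higher (2 without TgGRK5-MI replicate 5) and from 0 to 2 lower (2 without TgGRK5-MI replicate 2). Over all genes tested, 7.47% were higher and 4.41% lower with limma-voom, and 6.59% and 3.72% with the macrophage covariate. Of 15232 genes tested, 296 were higher and 328 lower with library size alone, and 405 and 329 with the Xist and Y-linked covariate. Over all genes, 260 of 15608 were higher without TgGRK5-MI replicate 5 and 265 of 15345 lower without TgGRK5-MI replicate 2. Without NLC-MI replicate 5, 443 of 15610 were higher and 344 lower. With each library left out, the number lower ran from 264 of 15407 (without NLC-MI replicate 4) to 537 of 15306 (without NLC-MI replicate 1). The causes were not tested. The covariate of Xist and Y-linked genes held no sex difference to adjust for, because each library read as male. Grk5 stayed between 4.18 and 4.53 on the log2 scale with each library left out. The deviations of same-numbered libraries from their group means had correlations of 0.072, 0.66, 0.38, -0.34 and 0.085. Such values cannot show whether same-numbered libraries shared a batch, and the labels give no pairing. With the replicate number as a block, 0 of the 48 genes were higher and 1 was lower at an unadjusted p under 0.05. Over all 15232 genes tested in that fit, 310 were higher and 294 lower.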
